A study of Rattus norvegicus with 8 samples.

Results

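The enzymes described here turn amino nitrogen into urea and glutamine in the liver. They are 10 genes: Nags, Cps1, Otc, Ass1, Asl and Arg1 of the urea cycle, and Gls2, Glud1, Sds and Glul, which release or capture ammonia next to it. The 10 were taken from 14217 genes on the array by name, through every probe set (a group of short probes against 1 transcript) annotated to that gene alone, which gave 15 of 31042 probe sets. No probe set that lists several genes held a member. The set and the question whether its steps follow Otc were chosen by results of these same arrays, that is with the diet differences, the spread between rats and the relation to Otc already known. Differences between diets and correlations with Otc are therefore descriptions, and their p-values support nothing further.

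Livers came from 8 Sprague-Dawley males, 7 weeks of age, and each was measured on 1 Affymetrix 3′ array, 4 per diet. For 2 weeks the L. brevis group received viable, freeze-dried Lactobacillus brevis 119-2, a bacterium isolated from turnip, at 10 g per kg of a CRF-1 chow that also held cholesterol (10 g per kg) and cholic acid (5 g per kg). The control group received that cholesterol and cholic acid chow with no bacterium according to the design text, although the control samples' own label mentions only CRF-1. Both diets thus carried cholesterol and cholic acid, and no rats on plain chow were analysed here. The study had 11 rats per group, and the labels do not say how the 4 arrayed rats were picked.

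The urea cycle detoxifies ammonia. NAGS makes N-acetylglutamate, the obligate activator of CPS1, which condenses ammonia and bicarbonate into carbamoyl phosphate in the mitochondrion, and OTC joins that to ornithine as citrulline. In the cytosol ASS1 adds aspartate, ASL releases fumarate and arginine, and ARG1 splits arginine into urea and ornithine. In rat liver these enzymes, glutaminase GLS2 and serine dehydratase SDS lie mostly in periportal hepatocytes, while glutamine synthetase, GLUL, is held by a thin rim of pericentral hepatocytes that scavenges the ammonia left over.

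Promoter windows from RefSeq, build GRCr8, are shown for Otc and Cps1, since one probe set of Cps1 followed Otc from rat to rat. Each holds the 250 bases before and the 50 bases after an annotated start, and 8 of the 10 members had an entry, with none for Arg1 and Sds. Capitals mark matches on either strand to the letters searched, which were CAAAGNNCA for HNF4, TTNNGNAA for C/EBP, TGACG for a cAMP response half-site and TGTTCT for a glucocorticoid response half-site.
Otc, chrX:15202424-15202723, minus strand: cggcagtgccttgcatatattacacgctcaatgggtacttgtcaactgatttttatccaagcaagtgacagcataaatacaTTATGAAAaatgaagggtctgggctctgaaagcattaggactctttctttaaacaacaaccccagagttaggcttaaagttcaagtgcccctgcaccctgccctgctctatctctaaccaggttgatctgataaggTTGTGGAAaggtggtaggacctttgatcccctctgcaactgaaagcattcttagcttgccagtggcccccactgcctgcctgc
Cps1, chr9:76063613-76063912, plus strand: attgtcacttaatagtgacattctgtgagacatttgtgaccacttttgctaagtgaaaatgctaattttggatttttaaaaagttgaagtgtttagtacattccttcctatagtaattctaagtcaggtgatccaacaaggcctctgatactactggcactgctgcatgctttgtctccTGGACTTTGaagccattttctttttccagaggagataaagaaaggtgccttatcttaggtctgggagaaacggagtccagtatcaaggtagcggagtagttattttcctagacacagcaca
The Otc window held 2 matches to the C/EBP letters, starting 169 and 33 bases before the start, and none to the other motifs. The Cps1 window held 1 match to the HNF4 letters on the minus strand, 71 bases before the start, and none to the others. Of all 33469 windows of this length 6.08% held the HNF4 letters, 41.3% the C/EBP letters, 21.2% the cAMP half-site and 20.7% the glucocorticoid half-site. Matches are letters in a window and say nothing about binding in these livers.

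Values are the deposited log2 signals, 1 unit being a doubling, and differences are L. brevis minus control on that scale. Only 6323 of the 31042 probe sets differed by more than 0.01 log2 between any 2 arrays, and the others held 1 value set by the processing. All 15 member probe sets varied, while 26.8% of genes had a varying brightest probe set. Levels of different probe sets are not compared with each other. The liver marker albumin, Alb, held 14.55 on every array, and none of the 6 measured enterocyte markers varied, enterocytes being the other cells known for making Cps1 and Otc. As Alb shows, a lack of variation does not tell whether a transcript was present. Of 9 measured skeletal muscle markers 6 varied, and some stood apart in L. brevis 2. Acta1, skeletal muscle actin, was 12.45 there, while L. brevis 1, 3 and 4 had 5.29 to 5.48 and the controls 5.08 to 5.54. Ckm, muscle creatine kinase, was 7.78 there, against 6.11 to 6.49 and 6.18 to 6.37. Others did not: Myh1 spanned 10.79 to 11.31 with L. brevis and 10.40 to 11.32 with the control diet. Actn3 spanned 6.21 to 6.38 and 6.21 to 6.32. Of 6 measured sinusoidal endothelium markers 5 varied, and at their brightest probe sets all 5 were lower with L. brevis. Of these, 3 stood at an unadjusted p under 0.05, where 20.6% of varying genes did, and 0 were called by limma. The other varying probe set of Kdr differed by 0.02 and that of Lyve1 by -0.15. Mean level of the 5 endothelium markers was 8.73 to 8.95 with L. brevis and 8.94 to 9.50 with the control diet. Of 8 measured macrophage and Kupffer cell markers 7 varied, 6 higher and 1 lower. Of these, 2 stood at an unadjusted p under 0.05, both higher, and 0 were called by limma. The part of either cell type in the results was not tested. The 5′ signal of a transcript relative to its 3′ signal is a common measure of RNA integrity and labelling on such arrays, and for GAPDH it differed between the rats. GAPDH 5′ minus 3′ was -2.20, -1.30, -0.94 and -0.68 in L. brevis 1 to 4, against -2.89, -1.83, -2.93 and -1.98 in control 1 to 4. Its difference of 1.13 had an exact permutation p of 0.0857 (0.107 adjusted over 5 such control measures, two-sided). The mean of 12 probe sets for the Bacillus poly-A control transcripts, which are added to samples before labelling, spanned 7.40 to 8.24 with L. brevis and 8.49 to 8.94 with the control diet (exact p = 0.0286, the smallest that 4 against 4 can give, and 0.107 adjusted over the 5). In bulk tissue, fewer cells of a type and less RNA per cell cannot be told apart.

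No member passed the test between diets. The comparison was fitted with limma to all probe sets, and 0 of the 10 brightest probe sets and 0 of all 15 had an adjusted p under 0.05, while 0.142% of all probe sets did (44, of which 7 varied), 0.0548% on the higher and 0.087% on the lower side. Over the varying probe sets alone 0 of 15 passed, where 0.0633% did. At an unadjusted p under 0.05 stood 2 of the 15, one of Cps1 and one of Glud1, where 22.9% of varying probe sets did, and 0 of the 10 brightest, where 20.6% of varying genes did. Of the 10 brightest probe sets 6 were higher and 4 lower with L. brevis, with a median difference of 0.076 and a mean of 0.38. With GAPDH 5′ minus 3′ as a covariate 5 were higher and 5 lower, with a median of -0.017 and a mean of 0.14. After quantile normalization the median was -0.0093. Over the 3806 varying genes 1599 were higher and 2207 lower, with a median of -0.042. Since the members were chosen with these values known, nothing is read from that contrast.

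**Figure D1:**
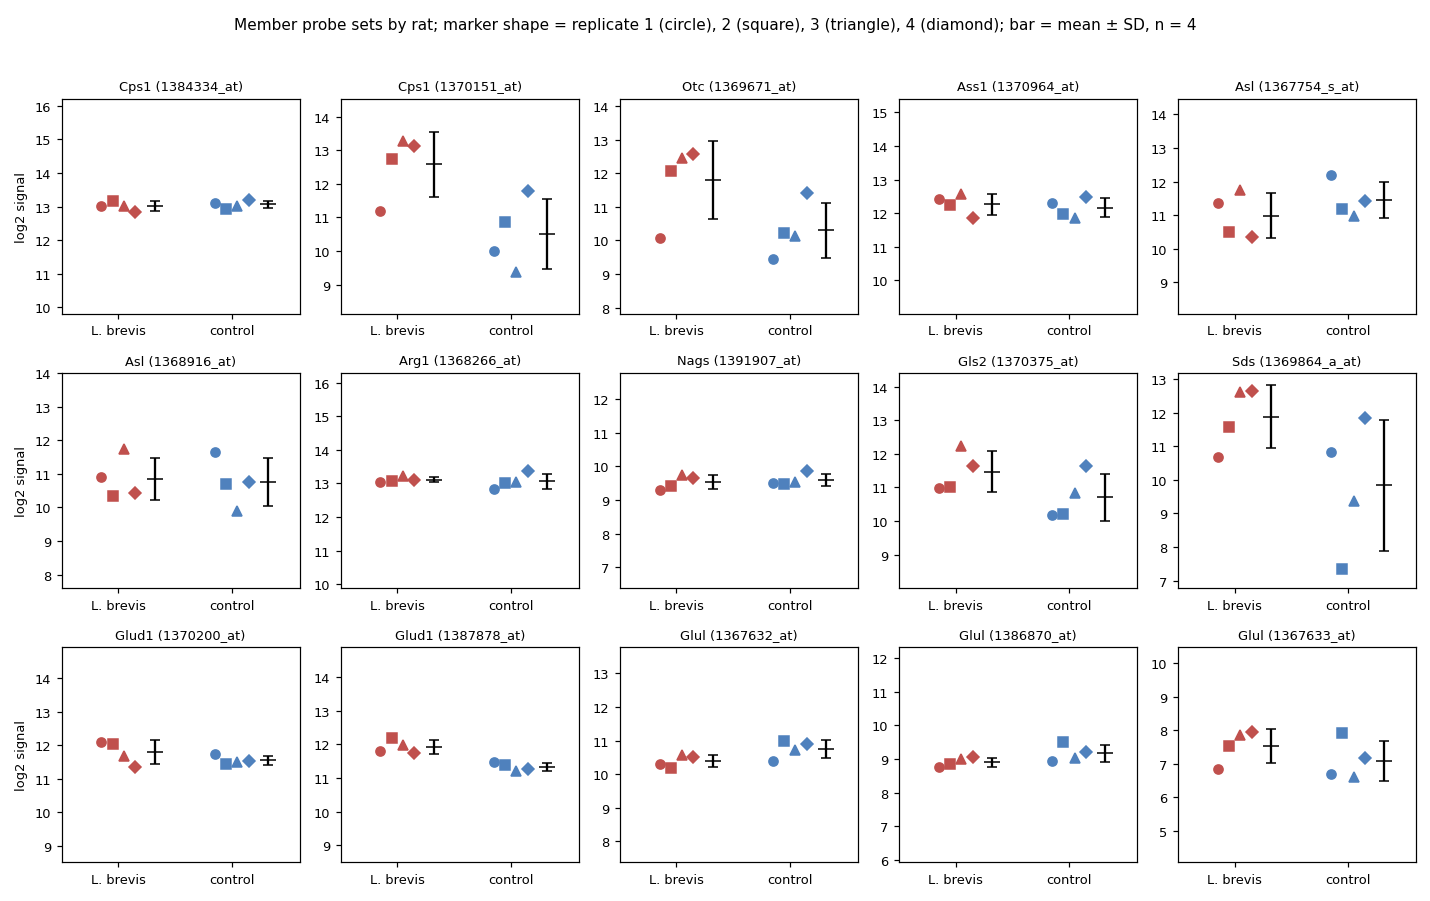
Log2 signal (y) of the 15 member probe sets in 4 L. brevis livers (left, red) and 4 control livers (right, blue), 1 point per rat, with mean ± SD beside each group and the same y span in every panel. One Cps1 probe set, Otc, Gls2 and Sds spread over more than 2 log2 units, while Arg1, Nags and the brightest Cps1 probe set stayed within 0.55.

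The first mitochondrial step did not give a single answer, because the probe sets of Cps1 disagreed. The brighter one, 1384334_at, had 13.02, 13.18, 13.01 and 12.83 in L. brevis 1 to 4, against 13.10, 12.93, 13.02 and 13.20 in control 1 to 4. These values overlap, although L. brevis 4 lay below every control and control 4 above every L. brevis rat. They differ by -0.053 (SE 0.09, adjusted p = 0.932, limma). The other, 1370151_at, had 11.18, 12.75, 13.28 and 13.12 in L. brevis rats, against 9.99, 10.87, 9.39 and 11.80 in control rats. L. brevis 2 to 4 lay above every control and L. brevis 1 lay inside the control range. The difference was 2.07 (SE 0.70, adjusted p = 0.355, limma), or 4.21-fold, with 12.58 ± 0.96 in L. brevis and 10.51 ± 1.05 in control rats (SD, n = 4 each). Where each probe set lies along the Cps1 transcript is not recorded in the tables used here. Nags, whose product CPS1 requires, had 9.31, 9.42, 9.75 and 9.65 in L. brevis rats, against 9.50, 9.47, 9.53 and 9.86 in control rats. The groups overlap and differ by -0.057 (SE 0.13, adjusted p = 0.994, limma).

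Otc, the second mitochondrial step, had 10.08, 12.07, 12.45 and 12.58 in L. brevis 1 to 4, against 9.46, 10.21, 10.14 and 11.42 in control 1 to 4. As for the dimmer Cps1 probe set, 3 L. brevis rats lay above all controls and L. brevis 1 did not. The mean was 11.79 ± 1.16 in L. brevis and 10.31 ± 0.82 in control rats (SD, n = 4 each), a difference of 1.48 (SE 0.70, adjusted p = 0.513, limma) or 2.80-fold. The difference ran from 1.20 without control 1 to 2.06 without L. brevis 1, with no call in either case. When the fit carried GAPDH 5′ minus 3′ as a covariate it was -0.046 (SE 0.59), and with the same measure of beta-actin, an alternative added after the data were seen, 0.22 (SE 0.62).

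No cytosolic step was called between diets, and the Asl probe sets differed in sign. Ass1, which makes argininosuccinate, had 12.41, 12.26, 12.57 and 11.85 in L. brevis rats, against 12.31, 11.99, 11.87 and 12.48 in control rats. Its groups overlap, with a difference of 0.11 (SE 0.21, adjusted p = 0.942, limma). Arg1, which releases urea, had 13.04, 13.07, 13.21 and 13.10 in L. brevis rats, against 12.82, 13.03, 13.05 and 13.37 in control rats. Every L. brevis value lay inside the control range, and the difference was 0.042 (SE 0.12, adjusted p = 1, limma), with the opposite sign (-0.055) after quantile normalization. Asl, argininosuccinate lyase, had 11.37, 10.50, 11.73 and 10.34 in L. brevis rats at its brighter probe set, against 12.20, 11.19, 10.96 and 11.42 in control rats. That was a difference of -0.46 (SE 0.42, adjusted p = 0.750, limma), with overlapping groups, and the other Asl probe set gave 0.10 (SE 0.47). At both Asl probe sets L. brevis 3 and control 1 were the highest rats.

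Of the enzymes that feed ammonia into the cycle, Sds had the widest spread between rats of all members. SDS deaminates serine to pyruvate and ammonia. Its signal was 10.68, 11.58, 12.62 and 12.64 in L. brevis 1 to 4, against 10.83, 7.33, 9.38 and 11.83 in control 1 to 4. The controls alone spanned over 4 log2 units, and the groups overlap. The mean was 11.88 ± 0.94 in L. brevis and 9.84 ± 1.95 in control rats (SD, n = 4 each), a difference of 2.04 (SE 1.07, adjusted p = 0.550, limma), or 1.20 without control 2. Gls2, liver glutaminase, had 10.99, 11.00, 12.25 and 11.65 in L. brevis rats, against 10.18, 10.20, 10.82 and 11.65 in control rats. L. brevis 3 alone exceeded the highest control, and the difference was 0.76 (SE 0.45, adjusted p = 0.576, limma). Without control 4 it was 1.08, and without L. brevis 3 it was 0.50.

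Glud1, glutamate dehydrogenase, gave the single probe set whose diets did not overlap. At 1387878_at the values were 11.79, 12.20, 11.98 and 11.76 in L. brevis rats, against 11.48, 11.40, 11.21 and 11.28 in control rats. All L. brevis values lay above all controls, as 1 of 15 member probe sets, where 11.3% of varying probe sets had no overlap in either direction. The difference was 0.59 (SE 0.12, adjusted p = 0.250, limma), between 0.50 and 0.65 with any 1 rat left out. The brighter Glud1 probe set, 1370200_at, had 12.10, 12.04, 11.68 and 11.34 in L. brevis rats, against 11.74, 11.44, 11.49 and 11.53 in control rats. L. brevis 4 was below all controls there, and the difference was 0.24 (SE 0.19, adjusted p = 0.695, limma).

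Glul, the glutamine synthetase of pericentral cells, was represented by 3 probe sets that did not share a direction. The brightest, 1367632_at, had 10.31, 10.18, 10.58 and 10.50 in L. brevis rats, against 10.39, 11.00, 10.72 and 10.90 in control rats. L. brevis 1 and 2 lay below every control, control 1 lay among the L. brevis values, and the difference was -0.36 (SE 0.16, adjusted p = 0.475, limma). The probe set 1386870_at had 8.75, 8.84, 9.00 and 9.05 in L. brevis rats, against 8.93, 9.52, 9.02 and 9.21 in control rats, a difference of -0.26 (SE 0.15). The third, 1367633_at, had 6.84, 7.51, 7.85 and 7.94 in L. brevis rats, against 6.69, 7.91, 6.60 and 7.16 in control rats, a difference of 0.45 (SE 0.39). On this one L. brevis 4 and control 2 stood highest.

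Most steps did not pass for following Otc over all 8 rats. Over the 8 rats, 1 of 14 other member probe sets passed for its correlation with Otc, namely 1370151_at of Cps1, with Pearson r = 0.929 (exact permutation p = 0.00213, adjusted over the 14 to 0.0299) and Spearman rho = 0.857 (exact p = 0.0107, adjusted 0.128). Without L. brevis 3 and 4, the rats farthest from the Otc median, r was 0.856 (exact p = 0.0306), and on deviations from the diet means it was 0.882 (exact p = 0.0243, 576 pairings within diets). On residuals from the GAPDH 5′ minus 3′ signal, described next, r was 0.462. None of these alternatives passed once adjusted over the 14 (adjusted p = 0.428, 0.146 and 0.494, exact permutation). Both diets are pooled in these correlations, and 4 rats are too few for one within a diet. The share of all varying probe sets with an r with Otc as high as that of 1370151_at is not given here. Genes outside the set reached a higher r with Otc, among them Rab18 at 0.989, so the value is not particular to these enzymes. The brighter Cps1 probe set had r = -0.127. Gls2 (r = 0.827, rho = 0.786, exact p = 0.0149 and 0.0279) and Sds (r = 0.706, rho = 0.738, exact p = 0.0402 and 0.0458) did not pass after adjustment (0.104 and 0.188 for r, 0.128 for both rho). Without L. brevis 3 and 4 r was 0.676 for Gls2 and 0.478 for Sds. For Arg1 r was 0.628 (rho = 0.762, exact p = 0.0925 and 0.0368) and for Nags 0.525 (exact p = 0.181). On deviations from the diet means r was higher for Nags, at 0.846 (exact p = 0.0139), and for Arg1, at 0.709 (exact p = 0.0312), while Gls2 had 0.735 and Sds 0.516, none past the threshold once adjusted over the 14. Over all rats, for Ass1 it was 0.10 and for the brighter Asl probe set -0.519.

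Otc also rose with the GAPDH 5′ minus 3′ signal over the 8 rats, though not in exactly the same order of rats. The Pearson r of Otc with that signal over the 8 rats was 0.913 (exact p = 0.00196, adjusted over 15 member probe sets to 0.0147) and rho was 0.905 (exact p = 0.00456, adjusted 0.0228). Of the 6323 varying probe sets 399, or 6.31%, had an r with that signal at least that high, and 648, or 10.2%, an r at least that far from 0 on either side. The correlation with that signal passed for 2 other member probe sets, whose own shares are not given here. They were 1370151_at of Cps1 (r = 0.958, adjusted p = 0.0108, exact permutation) and 1367633_at of Glul (r = 0.894, adjusted p = 0.0254, exact permutation). Without control 3 and L. brevis 4, the rats farthest from the median of the signal, these r were 0.910 for Otc, 0.940 for Cps1 and 0.820 for Glul. On deviations from the diet means they were 0.844, 0.911 and 0.939. Over all 8 rats the brightest probe sets of Cps1 and Glul had r of -0.353 and -0.122. On deviations from the diet means the brightest Cps1 probe set had -0.279, apart from the other Cps1 probe set. The Glul probe sets 1367632_at and 1386870_at had 0.702 (exact p = 0.0764) and 0.859 (exact p = 0.00347) there, so that all 3 Glul probe sets had a positive r within the diets. Sds and Gls2 had r of 0.533 and 0.669 and did not pass (adjusted p = 0.427 and 0.219, exact permutation).

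**Figure D2:**
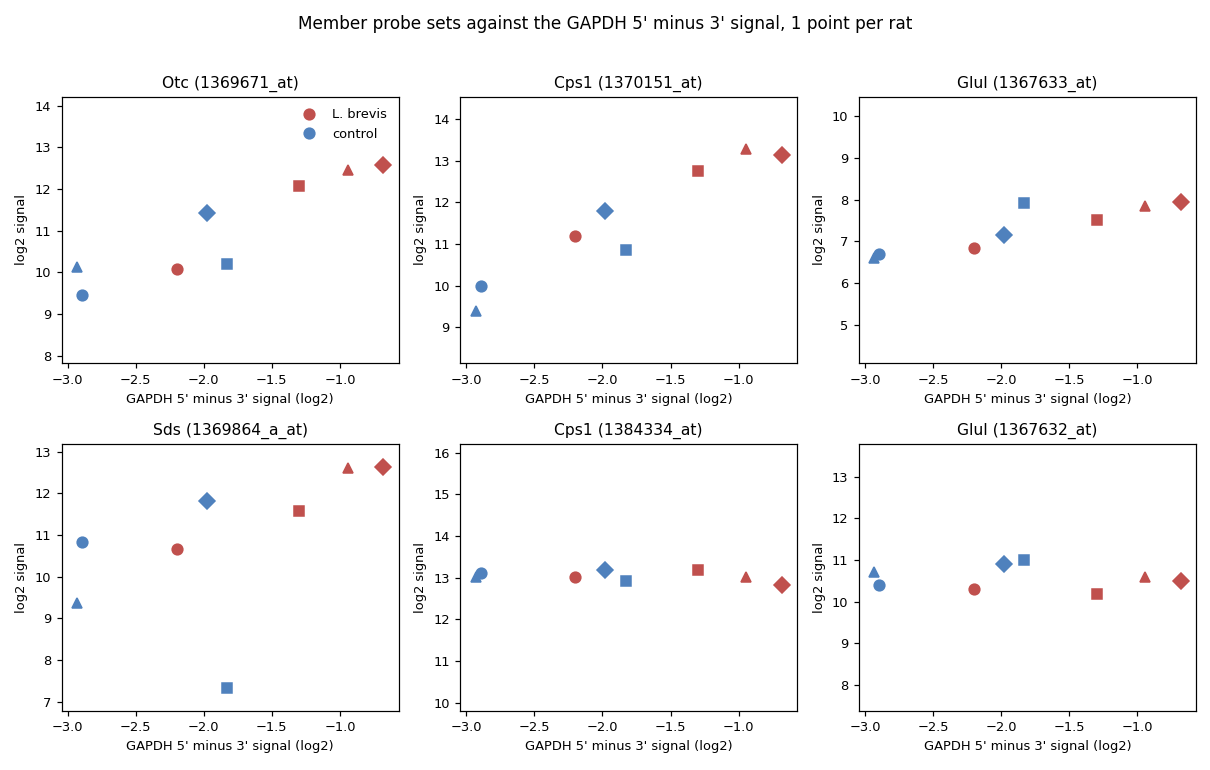
Log2 signal (y) of 6 member probe sets against the GAPDH 5′ minus 3′ signal (x, log2), 1 point per rat, L. brevis in red and control in blue, with the marker shape giving the replicate number. Otc, Cps1 1370151_at and Glul 1367633_at climb along x over all 8 rats, whereas the brightest probe sets of Cps1 and Glul do not, and control 2 lies far below the other rats for Sds.

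Probe sets of the same gene lay closer together once GAPDH 5′ minus 3′ entered the fit as a covariate. The 3 Glul probe sets had differences of -0.65 (SE 0.18), -0.58 (SE 0.12) and -0.49 (SE 0.21) in that fit, all on the lower side. Those of Glud1 were 0.59 (SE 0.20) and 0.57 (SE 0.18), and those of Cps1 were 0.013 (SE 0.14) for the brighter and 0.42 (SE 0.46) for 1370151_at. In that fit Sds was at 1.57 (SE 1.66), against 2.04 without the covariate. Gls2 was at 0.22 (SE 0.63), against 0.76, and Nags at -0.28 (SE 0.16), against -0.057. None of the 15 passed (lowest adjusted p = 0.659, limma), where 0.0999% of all probe sets did. At an unadjusted p under 0.05 stood both Glud1 probe sets and 2 of the 3 Glul probe sets, where 7.65% of varying probe sets did. The covariate itself ran higher in the L. brevis rats, and its part in the diet differences cannot be fully told apart from that of the diet.

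**Figure D3:**
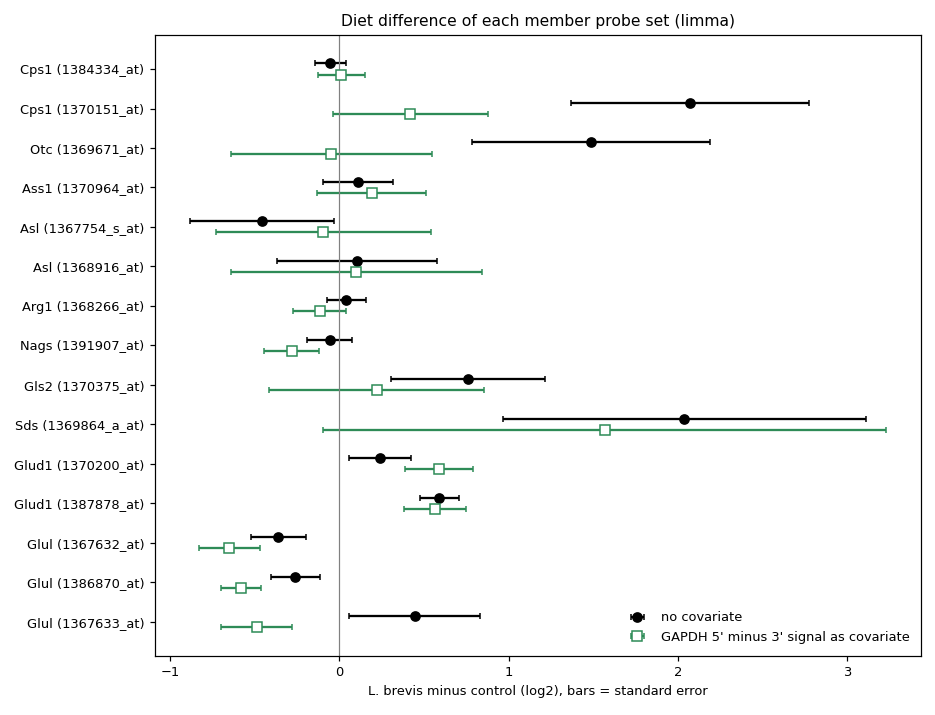
Difference between diets (x, L. brevis minus control, log2, with standard error) for the 15 member probe sets (y), fitted by limma without a covariate (black circles) and with GAPDH 5′ minus 3′ as covariate (open green squares). Otc lies at 1.48 without and -0.046 with the covariate, Cps1 1370151_at at 2.07 and 0.42, and Glud1 1387878_at at 0.59 and 0.57.

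Periportal members were set against Glul, by its brightest probe set 1367632_at, in each rat, each gene centred on its mean over the 8 rats. The mean of the 8 periportal members minus Glul was 0.11, 0.52, 0.67 and 0.39 in L. brevis 1 to 4, against -0.032, -1.15, -0.57 and 0.061 in control 1 to 4. All L. brevis rats stood above all control rats, by a margin of under 0.05 between L. brevis 1 and control 4. The means were 0.42 ± 0.24 in L. brevis and -0.42 ± 0.56 in control rats (SD, n = 4 each), a difference of 0.84, or 0.48 for the periportal members without Glul, where the groups overlap. It is a description of genes chosen with their values known and has no test. Of the 8 periportal members 5 were higher and 3 lower with L. brevis, with a median difference of 0.076 against the mean of 0.48. Sds (2.04), Otc (1.48) and Gls2 (0.76) had the largest differences, so the mean is not a shift shared by all 8. The result depends on which Glul probe set is taken, an alternative added after the data were seen. With 1386870_at the difference was 0.74 and control 4 (0.22) lay above L. brevis 1 (0.13). With 1367633_at it was 0.038, and the diets overlapped, at -0.31 to 0.32 in L. brevis and -1.32 to 0.55 in control rats. With the GAPDH 5′ minus 3′ covariate, also added then, it was 0.83 for the brightest probe set. With the median of the periportal members in place of their mean it was 0.51. Without any 1 rat the difference lay between 0.60 and 1.00.

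**Figure D4:**
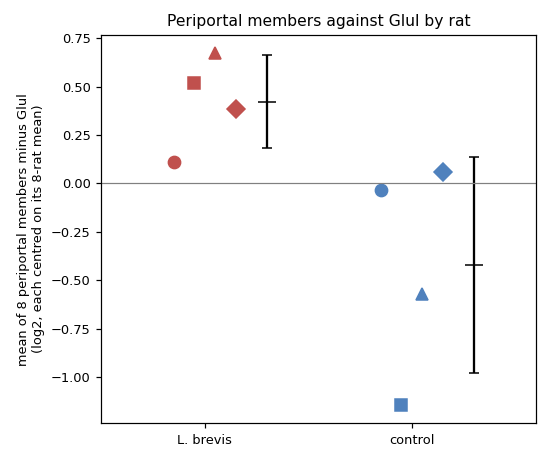
Mean of the 8 periportal members minus the brightest Glul probe set (y, log2, each gene centred on its mean over the 8 rats) in L. brevis livers (left) and control livers (right), 1 point per rat, marker shape giving the replicate number, with mean ± SD. The 4 L. brevis rats lie between 0.11 and 0.67 and the 4 control rats between -1.15 and 0.061.

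No neighbouring gene of nitrogen metabolism listed here passed the test. Of 19 genes that supply ornithine, aspartate and glutamate 13 varied, 8 higher and 5 lower (median 0.15, or -0.064 with the GAPDH covariate), 0 of them called by limma and 1 at an unadjusted p under 0.05. That was Gpt, alanine aminotransferase, with 10.91 ± 0.22 in L. brevis and 10.25 ± 0.21 in control rats (SD, n = 4 each), a difference of 0.66 (SE 0.15, adjusted p = 0.293), and 0.63 with the GAPDH covariate. Got1, cytosolic aspartate aminotransferase, differed by 1.15 (SE 0.57), or 1.59 with the covariate, and Sirt5, a mitochondrial deacylase that acts on CPS1, by -0.37 (SE 0.22), or 0.059 with it. Of 12 amino acid transporters 6 varied, 5 higher and 1 lower (median 0.017, or -0.054 with the GAPDH covariate), 0 called and 1 at an unadjusted p under 0.05. That was Slc38a4, a system A carrier of hepatocytes, with 12.45 ± 0.37 in L. brevis and 11.46 ± 0.23 in control rats (SD, n = 4 each), a difference of 0.99 (SE 0.22, adjusted p = 0.267), and 0.54 with the GAPDH covariate. Slc1a2, a glutamate carrier, and Slc43a1, a carrier of neutral amino acids, differed by 0.074 (SE 0.07) and -0.11 (SE 0.30), or -0.082 and -0.36 with the covariate.

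Of 43 enzymes of amino acid breakdown 34 varied, 19 higher and 15 lower (median 0.080, or 0.012 with the GAPDH covariate), 0 called and 4 at an unadjusted p under 0.05, all 4 higher. The smallest p among them were those of Ahcy, which splits S-adenosylhomocysteine, at 0.21 (SE 0.06), Bhmt, which remethylates homocysteine with betaine, at 1.23 (SE 0.38), and Aadat, which transaminates aminoadipate and kynurenine, at 0.65 (SE 0.20), each with an adjusted p of 0.347 (limma). With the GAPDH covariate they were 0.22, 0.80 and 0.28. Of 14 regulators 11 varied, 5 higher and 6 lower (median -0.048, or 0.017 with the GAPDH covariate), with 0 at an unadjusted p under 0.05 and 0 called by limma. The glucocorticoid receptor gene Nr3c1 differed by 0.35 (SE 0.17), the glucagon receptor gene Gcgr by -0.25 (SE 0.17) and Crtc2, a CREB coactivator, by -0.39 (SE 0.20). With the covariate they were 0.017, 0.0053 and -0.19.

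No other zonated gene listed here was called between diets. Of 13 further periportal genes 10 varied, 8 higher and 2 lower (median 0.16), where 42.0% of all varying genes were higher. Of these 10, 0 stood at an unadjusted p under 0.05 and 0 were called by limma. Gldc, of glycine cleavage, differed by 1.14 (SE 0.73), or -0.32 with the GAPDH covariate, Uroc1, of histidine breakdown, by 0.21 (SE 0.14), or 0.14, and Cyp2f4, a periportal cytochrome, by -0.32 (SE 0.18), or -0.52. Of 16 further pericentral genes 10 varied, 5 higher and 5 lower (median -0.0085), 0 called and 1 lower at an unadjusted p under 0.05. That was Lect2, a secreted hepatokine, at -0.24 (SE 0.06, adjusted p = 0.323, limma), with 0.30 at its other varying probe set and -0.22 for the first with the GAPDH covariate. Cyp2e1, an ethanol-oxidising cytochrome, and Ahr, the dioxin receptor gene, differed by 0.044 (SE 0.03) and -0.66 (SE 0.57), or -0.00086 and -0.61 with it. With the GAPDH covariate the median of the further periportal genes was -0.058 and that of the further pericentral genes -0.15, against -0.025 over all varying genes. The lists share genes, so their counts are not separate. Hal, Uroc1, Ftcd and Gldc were also counted among the enzymes of amino acid breakdown. Oat and Prodh were also counted among the supply genes, and Slc1a2 among the transporters.

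Among 3796 other varying genes the 5 with the highest Pearson r with Otc over the 8 rats were Rab18, a GTPase of lipid droplets (r = 0.989), Cetn2, a centrin (0.989), Pon1, a secreted paraoxonase (0.982), Aldh6a1, of valine breakdown (0.981), and Maob, a monoamine oxidase (0.980). They were picked for that likeness, so no p is given. Their r with the GAPDH 5′ minus 3′ signal was 0.951, 0.904, 0.953, 0.876 and 0.881. Rab18 had 9.38 ± 0.65 in L. brevis and 8.46 ± 0.46 in control rats (SD, n = 4 each).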

How the data were processed

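Affymetrix arrays of 8 rat livers, 4 per diet, were used. Per the labels' protocols, RNA was extracted with Trizol, column-purified and biotin-labelled by in vitro transcription. The authors deposited normalized log2 signals of every probe set (array medians 6.61 to 6.63), and the summarisation method and genome build are not given in the sources used here. Of 31099 probe sets 57 Affymetrix controls were left out. In GEO's platform annotation 20826 had 1 gene symbol, 436 several and 9780 none, and 0 symbols needed an update. A gene was represented by its brightest probe set with 1 symbol.

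L. brevis minus control was fitted with limma 3.58.1 in R 4.3.3 (eBayes with intensity trend, two-sided, Benjamini-Hochberg over 31042 probe sets, threshold 0.05). On simulated arrays with 200 probe sets shifted, the fit called 38.5% of those shifted by 1 log2 and 77.5% of those shifted by 2. The other probe sets gave 3 and 5 false calls. A true difference of these sizes can thus go uncalled. The pooled SD within diets was 1.01 for Otc and 1.53 for Sds, against a median of 0.22 over varying probe sets. The shares called therefore do not hold for members with so wide a spread. Correlations over rats used all 40320 pairings, two-sided. Pairs of arrays within a diet differed with an SD of 0.401 to 0.817 over varying probe sets. The number of arrays limits the precision, and scan batches are not given. The members and lists were chosen with earlier results of these data known; the p-values of correlations are adjusted over the member relations, as the design fixed. The text names all members, of each list the 3 varying genes with the smallest p, and the 5 genes most like Otc. Alternatives were varying probe sets only, quantile normalization, median centring, a filter on dim probe sets, no intensity trend, 5′ minus 3′ covariates, a replicate block, mean probe sets and each rat left out.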

Additional observations from a re-analysis of the deposited data

Results flagged for a closer look

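Nags stood apart in 1 control rat. Control 4 had 9.86, whereas the other control rats had 9.47 to 9.53, a gap of 0.838 of the group's range, above Dixon's critical ratio for 4 values. The same rat had the highest control value of both Cps1 probe sets (13.20 and 11.80), Otc (11.42), Ass1 (12.48) and Arg1 (13.37). So it had of Gls2 (11.65) and Sds (11.83), but not at any probe set of Asl, Glud1 or Glul. Each diet group of the 15 member probe sets was examined in this way, 30 groups in all, and chance alone gives such a mark in about 1 group in 20.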

How the results depend on the processing

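No member was called on either diet's side under any of the alternatives, those without 1 rat included (0 each). Most member differences kept their sign, with these exceptions, none past the threshold before or after; the cause was not tested. With the GAPDH 5′ minus 3′ covariate Cps1 was 0.013, Otc -0.046, Arg1 -0.12 and Glul 1367633_at -0.49. With the beta-actin covariate, chosen after seeing the data, Cps1 was 0.028, Asl 0.11, Arg1 -0.046 and Glul 1367633_at -0.31. Arg1 was -0.055 after quantile normalization, and the mean of both Cps1 probe sets gave 1.01. The median over the 10 brightest member probe sets also turned, to -0.017 with the GAPDH covariate and -0.0093 after quantile normalization. Leaving out single rats gave -0.11 to 0.00797 for Cps1, -0.039 to 0.14 for Arg1, -0.13 to 0.033 for Nags and -0.19 to 0.40 for Asl 1368916_at. The count of probe sets past the threshold was 4 among varying probe sets, 0 after quantile normalization and 0 after median centring, 21 among probe sets above the median mean, and 67 to 180 without single rats. A replicate block moved it to 128 with no member called. The labels do not say that the numbers pair rats. Deviations of same-numbered rats correlated at 0.359, 0.203, 0.0778 and 0.381. L. brevis 1, 2 and 4 correlated best with their own number but L. brevis 3 with control 4 (0.397). Seen from the controls, control 1 and 2 correlated best with their own number, control 3 with L. brevis 1 (0.202) and control 4 with L. brevis 3. These values do not settle whether the numbers pair rats. The numbers were not treated as pairs, 1 of the 4 same-numbered values being under 0.1. The periportal minus Glul difference was 0.038 with Glul 1367633_at.

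For correlation with Otc, the count of 1 passing probe set was 0 on deviations from the diet means, 0 without the 2 farthest rats, 0 on residuals from the GAPDH signal, and 0 to 2 without single rats. With single rats left out, Glul 1367633_at passed without control 2 (r = 0.962) and Arg1 without control 4 (r = 0.783), whereas Cps1 1370151_at kept r from 0.909 to 0.982. Its call was lost without control 1 or 4 or without any of the L. brevis rats (adjusted p from 0.0537 to 0.075, exact permutation). Signs turned on deviations from the diet means for Cps1 (0.028), Ass1 (-0.049), Glul (0.538) and Glul 1386870_at (0.519). They turned without the 2 farthest rats for Cps1 (0.663) and Glud1 (0.216), and on residuals for Cps1 (0.509), Glud1 1387878_at (-0.054) and Glul 1367633_at (-0.549). Without single rats r ran from -0.346 to 0.344 for Cps1, -0.175 to 0.504 for Ass1, -0.456 to 0.327 for Asl 1368916_at, -0.408 to 0.129 for Glud1, -0.325 to 0.074 for Glul and -0.257 to 0.309 for Glul 1386870_at.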
